A study of Homo sapiens with 22 samples.

Results

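On day 7 of reprogramming, 185 of 4230 kept cells (4.37%) carried POU5F1 at 100 CPM (counts per 1e6 UMIs of a cell) or more. They made up 0.441% of the 41975 kept cells of the whole series. These cells are called POU5F1-positive here. They were chosen on POU5F1 alone, in the 3 libraries of that day, and were compared with the 2421 kept cells of the same libraries in which no POU5F1 molecule was counted, called POU5F1-zero. The 1624 cells in between, with at least 1 molecule of POU5F1 but under 100 CPM, are described separately. Cells counted as kept showed 1000 genes or more and had no more than 10% of their unique molecular identifiers (UMIs, each of which marks 1 captured RNA molecule) on mitochondrial genes.

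The cells are BJ cells, an established line of human foreskin fibroblasts, which were reprogrammed inside microfluidic channels by daily transfection of messenger RNAs coding for POU5F1, SOX2, KLF4, MYC, LIN28 and NANOG. On day 7 the transfections were still going on, whereas on day 9, used here for comparison, they had ended the day before. The culture medium was also switched from day 9, from supplemented Pluriton to StemMACS iPSBrew XF. Day, end of transfection and medium cannot be told apart in comparisons of these days. The untransfected fibroblasts of day 0 are the background. Each day has 2 pools, A and B, of cells taken from several chips and frozen as aliquots, and the pools are the replicates (n = 2 per day). A pool is a mixture of channels, so its cells cannot be traced to a channel, and RNA that was transfected cannot be told apart from RNA that the cells made themselves.

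POU5F1, also known as OCT4, is a homeodomain transcription factor that the pluripotent cells of the early embryo require, and it acts together with SOX2 at enhancers and promoters that carry neighbouring binding sites for both. In reprogramming, fibroblasts lose their matrix and mesenchymal genes and gain epithelial genes, and the pluripotency genes of the cell itself are switched on afterwards in some of the cells. TDGF1 is the co-receptor of the growth factor NODAL, L1TD1 is an RNA-binding protein derived from a transposon, and DPPA4 is a chromatin protein. All are used as markers of human pluripotent cells.

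Pool A held 100 POU5F1-positive cells among 1727 (5.79%, exact 95% interval 4.74 to 7.0). In pool B, aliquot B1 held 21 among 440 (4.77%, 2.98 to 7.2) and aliquot B2 held 64 among 2063 (3.1%, 2.4 to 3.94). The intervals cover counting error only. POU5F1-zero cells made up 30.3%, 66.8% and 77.7% of the kept cells of pool A, B1 and B2. The cells in between made up 63.9%, 28.4% and 19.2%. The comparison class was thus a smaller part of pool A than of pool B. By the same rule no cell of day 0 was POU5F1-positive among 10776, which allows a share of up to 0.0278%, and on day 9 the share lay between 38.6% and 73.6% in the 4 libraries. The rule therefore selected few cells on day 7 and a large part of each library on day 9.

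**Figure D1:**
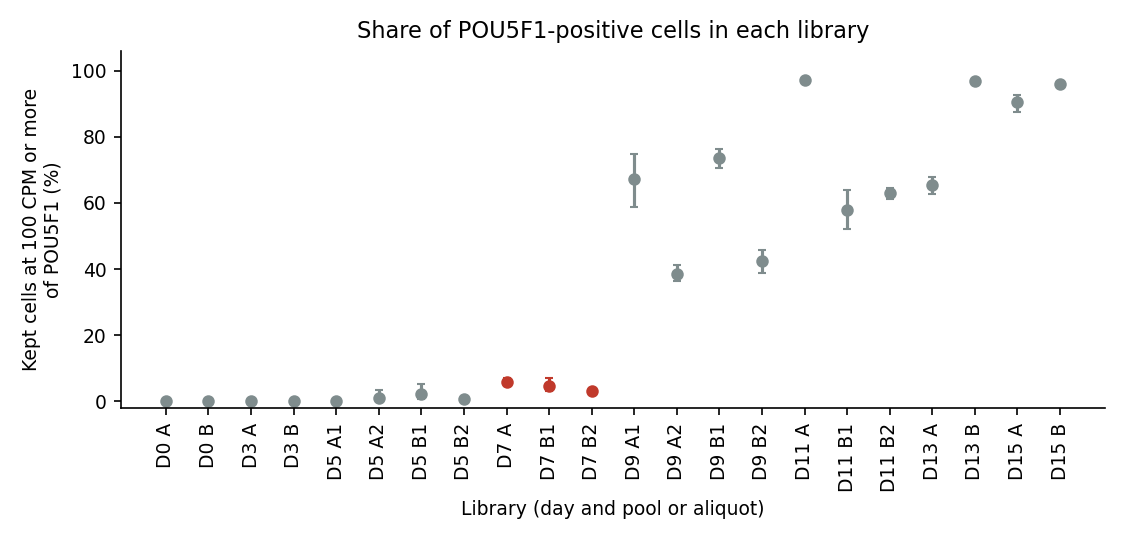
Percent of the kept cells of each of the 22 libraries with POU5F1 at 100 CPM or more (vertical axis), with exact 95% binomial intervals, by day and pool or aliquot (horizontal axis). The 3 libraries of day 7, in red, lie between 3.1% and 5.79%, above all libraries of days 0 to 5 and below all later ones.

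The median POU5F1 level of the selected cells was 243 CPM in pool A, 434 CPM in B1 and 279 CPM in B2, on a median of 23, 30 and 24.5 UMIs. These values chose the cells and are given as a description. The limit cut through a continuous range: the 3 highest cells left out in pool A had 97.41, 98.47 and 99.03 CPM, and the 3 lowest taken in had 101, 101.6 and 101.7 CPM. In B1 and B2, 1 and 8 cells lay between 80 and 100 CPM, and 1 and 7 lay between 100 and 120 CPM, against 20 and 11 in pool A. At the other end, 4, 3 and 9 cells of pool A, B1 and B2 reached 1000 CPM.

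POU5F1-positive cells had more UMIs per cell at the median than POU5F1-zero cells of the same library. Their median depth was 99219 UMIs against 66529 in pool A, 94250 against 60035.5 in B1, and 74876.5 against 43385 in B2. The cells in between had medians of 85297, 76365 and 61388 UMIs in pool A, B1 and B2. A cell with few UMIs is more easily counted without POU5F1, so the rule itself favours a lower depth in POU5F1-zero cells. The parts of this rule, of capture and of RNA content in the difference were not tested. The median share of mitochondrial UMIs was 4.14%, 4.84% and 4.07% in POU5F1-positive cells, against 3.87%, 4.6% and 3.34% in POU5F1-zero cells. Doublet scores marked 9 POU5F1-positive cells in all among the 5% highest of their libraries (1, 1 and 7 in pool A, B1 and B2). Between libraries, at most 16 cell barcodes were shared. The comparison was therefore repeated with every cell thinned to 20000 UMIs.

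The remaining markers were all higher in POU5F1-positive than in POU5F1-zero cells in each library. TDGF1 stood at 451, 471 and 519 CPM in pool A, B1 and B2, against 64.9, 42.3 and 48.2 CPM, and no library of either class overlapped with the other class. Its log2 fold change was 3.14 ± 0.13 (SE; adjusted p = 4.34e-06, edgeR). DPPA4 stood at 57.2, 121 and 72.1 CPM against 6.58, 5.62 and 4.53 CPM (log2 fold change 3.71 ± 0.21, adjusted p = 8.75e-06). L1TD1 was already abundant in POU5F1-zero cells, at 191, 249 and 100 CPM, and reached 415, 626 and 312 CPM in POU5F1-positive cells (1.40 ± 0.11, adjusted p = 2.99e-05). In fibroblasts of day 0 TDGF1, DPPA4 and L1TD1 stood at 0.018, 0.012 and 2.15 CPM at most, so both classes of day 7 lay above these fibroblasts. Day 0 held no POU5F1-positive cells and so does not measure RNA released from such cells. The part of such RNA in the levels of POU5F1-zero cells was not tested.

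For all genes, UMIs were added up per pool and class on days 7 and 9 (8 sums), and the classes were compared within pools by a quasi-likelihood test with adjustment over the 12793 genes tested. A gene is said to rise or fall where its adjusted p was below 0.01 and its log2 fold change beyond 0.25. Of these genes, 1770 (13.8%) were higher and 1877 (14.7%) lower in POU5F1-positive cells of day 7, in total 3647 (28.5%). The change was at least 2-fold for 875 genes that rose and 1069 that fell, and at least 8-fold for 231 and 40. The median over all genes tested was -0.01. With cells thinned to 20000 UMIs the counts were 1074 and 959, with only the cells between the depth quartiles of their library they were 758 and 672, and without the pool as a block they were 1022 and 1122. Without pool B of day 7 they were 863 and 918, and without aliquot B2 1144 and 1221. The p-values measure how far the class difference varied between the 2 pools of a day, in 1 cell line, with a spread partly shared over genes. This variation may be technical.

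The 12 largest rises among genes at 50 CPM or more that moved the same way in all 3 libraries were led by SEMA6A, EPCAM and UTF1. SEMA6A, a membrane-bound semaphorin, stood at 117, 245 and 101 CPM in POU5F1-positive cells of pool A, B1 and B2, against 7.13, 3.46 and 3.36 CPM in POU5F1-zero cells. That was a log2 fold change of 4.76 ± 0.26 (adjusted p = 8.57e-06), and B1 was the highest library. UTF1, a chromatin protein of pluripotent cells, reached 395, 430 and 412 CPM against 43.6, 12.2 and 11.2 CPM (4.20 ± 0.40, adjusted p = 7.97e-05). UTF1 was thus near 400 CPM in all 3 libraries of the selected cells, while its level in the comparison class differed between pools. The other genes named by this rule were EPCAM, CLDN6, ABHD12B, VASH2, DPPA4, SCGB3A2, MT1H, CYP2S1, RBPMS2 and the transcript RP11-1144P22.1, with log2 fold changes between 3.31 (RBPMS2) and 4.65 (EPCAM). VASH2, a tubulin carboxypeptidase, stood at 104, 185 and 100 CPM against 9.53, 9.19 and 5.86 CPM. MT1H, a metallothionein that binds zinc and copper, stood at 1600, 990 and 864 CPM against 210, 71.7 and 51.3 CPM. Metallothionein genes are near-identical copies, so the share of MT1H in these reads is uncertain. Each of the 12 genes stayed past the threshold in all 22 alternative analyses.

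The 12 largest falls among genes at 50 CPM or more that moved the same way in all 3 libraries were led by LUM, DKK1 and MMP1. LUM, a collagen-binding proteoglycan, stood at 97.7, 12.7 and 64.1 CPM in POU5F1-positive cells against 686, 391 and 683 CPM in POU5F1-zero cells (log2 fold change -3.19 ± 0.32, adjusted p = 0.000114). DKK1, a secreted inhibitor of WNT signalling, stood at 8.28, 1.96 and 7.01 CPM against 57.7, 44 and 65.5 CPM (-3.05 ± 0.15, adjusted p = 6.44e-06). MMP1, the interstitial collagenase, stood at 108, 13.2 and 47.5 CPM against 526, 558 and 498 CPM (-2.93 ± 0.28, adjusted p = 8.05e-05). For LUM, DKK1 and MMP1 aliquot B1 was the lowest of the selected cells and pool A the highest. That the libraries agreed in direction was required for naming these genes. DCN, MFAP4, APOD, MGP, CAV1, PENK, COL3A1, COL6A2 and SOD3 followed, with log2 fold changes between -2.93 (DCN) and -2.50 (SOD3). Of the 12 genes, 11 stayed past the threshold in all alternative analyses, and PENK, which encodes an opioid peptide precursor, lost it with the cells between the depth quartiles.

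**Figure D2:**
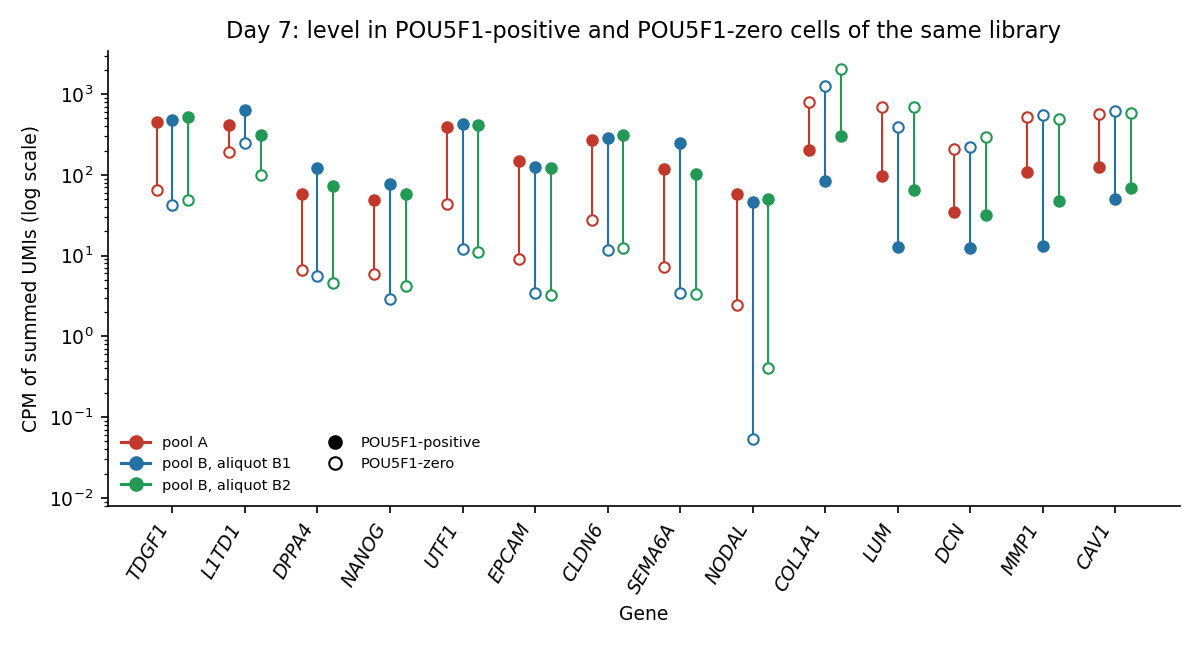
Level of 14 genes in CPM of the summed UMIs (vertical axis, log scale) in POU5F1-positive cells (filled) and POU5F1-zero cells (open) of each library of day 7, where a line joins the classes of 1 library. In each library TDGF1 to NODAL lie higher and COL1A1 to CAV1 lower in POU5F1-positive cells, and the filled points of LUM and MMP1 are lowest in aliquot B1.

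Of the 20 listed transcription factors of pluripotent cells, which include POU5F1 itself, 18 were tested. Of these, 17 rose and none fell, with a median log2 fold change of 2.95, against shares of 13.8% rising and 14.7% falling among all genes. The list holds 3 genes with 3 or fewer UMIs in a class, OTX2 and FOXD3 among them, and without these the median was 2.33. The filter on genes counted all 41975 kept cells of the series, of which 14168 were POU5F1-positive. A gene could pass it through these alone, so the counts of rises and falls are partly set by the filter. The lists were also chosen with earlier results of these data known. Both limits hold for the RNA-binding, NODAL pathway and epithelial lists below as well. NANOG, a homeodomain factor at the core of the pluripotency network, stood at 48.9, 78 and 57.5 CPM in POU5F1-positive cells and at 5.84, 2.92 and 4.19 CPM in POU5F1-zero cells (log2 fold change 3.59 ± 0.19, adjusted p = 7.75e-06). NANOG messenger was also transfected, so its counts may hold both kinds of RNA, in parts that were not tested. VRTN and ZSCAN10, which were not transfected, moved alike. VRTN stood at 32, 47.1 and 36.5 CPM against 1.57, 0.27 and 0.516 CPM (5.43 ± 0.35), and ZSCAN10, a zinc finger factor, at 39, 49.5 and 54.5 CPM against 2.98, 1.73 and 1.2 CPM (4.60 ± 0.30). ZFP42, also called REX1, stood at 14, 28.9 and 38.1 CPM against 1.29, 1.3 and 1.72 CPM (4.11), and PRDM14, a repressor of differentiation genes, at 15.4, 26 and 6.81 CPM against 2.26, 0.919 and 0.423 CPM (3.59). FOXD3 was counted in 21 UMIs of POU5F1-positive cells and 1 UMI of POU5F1-zero cells, too few to give a fold. The smallest rise of the list was that of TFAP2C, with a log2 fold change of 0.77.

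The promoters of NANOG and DPPA4 are shown because both genes rose steeply and because POU5F1 and SOX2 are known to act at neighbouring sites. They are the 250 bases before the RefSeq start (GRCh38.p14), on chromosome 12 for NANOG (chr12:7789152-7789401, plus strand) and on chromosome 3 for DPPA4 (chr3:109337547-109337796, minus strand). Capitals mark the octamer letters (TTTGCAT) and the SOX letters (ACAATG), searched on both strands.
NANOG: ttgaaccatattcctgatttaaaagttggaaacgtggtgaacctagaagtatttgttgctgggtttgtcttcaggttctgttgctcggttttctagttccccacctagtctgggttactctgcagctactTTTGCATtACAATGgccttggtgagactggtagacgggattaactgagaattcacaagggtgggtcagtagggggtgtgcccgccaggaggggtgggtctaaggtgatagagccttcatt
DPPA4: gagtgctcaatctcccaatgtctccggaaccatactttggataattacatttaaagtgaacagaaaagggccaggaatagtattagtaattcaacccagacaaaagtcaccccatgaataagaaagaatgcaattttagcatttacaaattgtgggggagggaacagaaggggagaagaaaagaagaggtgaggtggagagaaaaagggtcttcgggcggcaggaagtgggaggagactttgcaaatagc
The NANOG window holds both motifs side by side, 1 base apart (TTTGCATNACAATG), an arrangement found in 2 of 35116 windows (0.0057%). The octamer was in 3.94% and the SOX letters in 9.29% of these windows, with or without the other motif. A gene can have several of these windows. The shares of genes that follow count only the first window of each gene, so they are not comparable with these. The DPPA4 window, and that of L1TD1 on chromosome 1 (chr1:62194599-62194848, plus strand, not shown), holds neither. Among the genes with a window, 43 of 1276 that rose (3.37%) and 243 of all 9545 tested (2.55%) held the octamer, as did 35 of 1405 that fell (2.49%). The SOX letters were in 80 (6.27%) of the genes that rose, 74 (5.27%) of those that fell and 469 (4.91%) of all tested. These are matches of letters, and whether a factor was bound was not tested.

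Of the RNA-binding, chromatin and surface genes of pluripotent cells, 23 were tested. Of these 21 rose (91.3%, against 13.8% of all genes) and none fell (median 2.10). DNMT3B, a methyltransferase that sets new DNA methylation, stood at 18.6, 34.3 and 22.6 CPM against 2.03, 1.95 and 2.13 CPM (log2 fold change 3.47 ± 0.15, adjusted p = 4.34e-06). DPPA2, the partner of DPPA4, stood at 5.95, 5.39 and 8.82 CPM against 0.143, 0 and 0.119 CPM (adjusted p = 6.44e-06). LIN28B, which blocks the let-7 microRNAs and was not listed among the transfected factors, stood at 5.15, 7.36 and 3.81 CPM against 0.372, 0.703 and 0.198 CPM (3.93 ± 0.28). The members of the list that did not pass the test were THY1, at 716, 709 and 610 CPM against 735, 611 and 637 CPM (0.01), and USP44 (0.13). THY1, also known as CD90, is a surface protein of fibroblasts as well as of pluripotent cells. The classes overlapped for THY1, with POU5F1-positive cells lower in pool A and B2 and higher in B1.

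NODAL is the ligand of a pathway that keeps human pluripotent cells undifferentiated, and it works through activin receptors, the co-receptor TDGF1, the factors SMAD2 and SMAD3, and FOXH1 in the nucleus. The ligand, the co-receptor and the nuclear factor all rose. NODAL stood at 58.6, 46.6 and 50.7 CPM against 2.46, 0.0541 and 0.41 CPM (log2 fold change 5.70 ± 0.41, adjusted p = 2.14e-05), and FOXH1 at 52.5, 43.2 and 51.7 CPM against 7.13, 2.11 and 3 CPM (3.52 ± 0.25, adjusted p = 1.87e-05). GDF3, a related ligand, stood at 73.6, 66.7 and 66.5 CPM against 16.8, 5.25 and 7.15 CPM (2.73). Receptors and SMAD factors differed less: ACVR2B rose (0.96), while ACVR1B (-0.39), ACVR2A (-0.68), SMAD2 (0.01), SMAD3 (0.10) and SMAD4 (-0.28) did not pass the test. Targets that feed back on the pathway were still low. LEFTY1 stood at 6.26, 5.39 and 10.4 CPM against 1, 0.487 and 0.49 CPM (3.52 ± 0.58, adjusted p = 0.00148). LEFTY2 was uneven, at 0.606, 1.96 and 17.6 CPM against 0.229, 0.325 and 0.0529 CPM (5.90 ± 0.76, adjusted p = 0.00039), so that its high value lay in aliquot B2. Of 181 POU5F1-positive cells that could be thinned, 2, 0 and 3 cells of pool A, B1 and B2 held a LEFTY2 UMI, and the call was lost without B2, without pool B, with cells between the depth quartiles and with DESeq2. LEFTY1 lost its call without B2 as well. INHBA, the subunit of activin A, fell, at 3.63, 0.981 and 3.81 CPM against 18.8, 18.1 and 13.4 CPM (-2.30). In all, 18 genes of the list were tested, and 8 rose (44.4%, against 13.8% of all genes). INHBA was among the 2 that fell, a share of 11.1% that is near the 14.7% of all genes. The median was 0.34, or 0.58 without CER1, which had at most 1 UMI.

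Most epithelial genes tested were higher in the selected cells, as sums over cells. EPCAM, a cell adhesion molecule of epithelia and of pluripotent cells, stood at 149, 126 and 123 CPM against 8.99, 3.41 and 3.29 CPM (log2 fold change 4.65 ± 0.23, adjusted p = 6.44e-06). CLDN6, a tight junction protein of embryonic epithelia, stood at 271, 289 and 308 CPM against 27.5, 11.7 and 12.5 CPM (3.99 ± 0.26). ESRP1, which sets epithelial splicing, stood at 8.58, 17.7 and 16.8 CPM against 0.401, 0.0541 and 0.159 CPM (5.96 ± 0.40). CDH1, the E-cadherin that holds epithelial cells together, was at a low level in all libraries, 3.03, 6.37 and 2.6 CPM against 0.0859, 0.162 and 0.0397 CPM (5.57 ± 0.42, adjusted p = 2.7e-05). The keratins KRT8 and KRT18 were abundant in both classes and rose less: KRT18 stood at 2130, 1810 and 1780 CPM against 944, 593 and 535 CPM (1.47), and KRT8 at 936, 980 and 961 CPM against 491, 395 and 297 CPM (1.29). Of the 32 genes of the list tested, 28 rose (87.5%, against 13.8% of all genes) and none fell (median 2.12). KRT7 (0.08), JUP (0.31), TJP1 (0.38) and MARVELD3 (0.95) did not pass the test. Added up over the list, epithelial genes took 4056, 3864 and 3815 CPM in POU5F1-positive cells against 1714, 1247 and 1023 CPM. Cell by cell the classes overlapped, and 38%, 38.1% and 59.4% of the POU5F1-positive cells of pool A, B1 and B2 lay above the 95th percentile of POU5F1-zero cells of their library.

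Every fibroblast matrix gene tested fell: 30 of 30, against 14.7% of all genes, with a median log2 fold change of -1.83. COL1A1, the main chain of type I collagen, stood at 203, 83.4 and 301 CPM against 805, 1270 and 2030 CPM (-2.46), and COL3A1, the chain of type III collagen, at 117, 60.3 and 190 CPM against 512, 849 and 1340 CPM (-2.56 ± 0.19, adjusted p = 2.43e-05). DCN, decorin, stood at 34.9, 12.3 and 32.1 CPM against 206, 219 and 292 CPM (-2.93 ± 0.21, adjusted p = 2.01e-05). In fibroblasts of day 0 DCN stood at 452 and 465 CPM in pools A and B, and COL3A1 at 307 and 349 CPM. POU5F1-zero cells were therefore below day 0 for DCN and above it for COL3A1. Summed over the list, matrix genes took 2767, 1505 and 2978 CPM in POU5F1-positive cells against 8620, 9222 and 14030 CPM.

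Of the mesenchymal transcription factors and surface genes, 39 were tested. Of these 32 fell (82.1%, against 14.7% of all genes) and 1 rose (2.56%, against 13.8%), with a median of -1.47. SNAI2, a repressor of E-cadherin, stood at 6.16, 3.43 and 6.81 CPM against 35.5, 23.4 and 41 CPM (log2 fold change -2.57 ± 0.20, adjusted p = 2.99e-05). ZEB1, ZEB2, TWIST1, TWIST2 and PRRX1, all factors of mesenchymal cells, fell as well, by log2 fold changes between -1.18 (TWIST1) and -2.45 (PRRX1). SNAI1, related to SNAI2, did not pass the test (0.15), at 4.95, 5.39 and 6.41 CPM against 5.1, 3.95 and 5.24 CPM. CAV1, which coats the pits of caveolae, stood at 124, 49.5 and 68.3 CPM against 573, 612 and 577 CPM (-2.66 ± 0.26). VIM, vimentin, stayed abundant and fell by 1.30 on the log2 scale, at 1540, 1730 and 1950 CPM against 3280, 4910 and 5750 CPM. The gene that rose was CNN1, a calponin of smooth muscle, by 0.51 ± 0.12 (adjusted p = 0.00947), and the rise was lost in 11 of 22 alternative analyses.

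Collagen RNA was counted in all POU5F1-positive cells. After thinning to 20000 UMIs, 98, 21 and 62 cells of pool A, B1 and B2 remained, and each held at least 1 UMI of COL1A1, COL1A2 or COL3A1, with a median of 9, 4 and 11 UMIs. EPCAM was found in 72, 13 and 45 of these cells. The matrix level of the single cells was low and narrow: in pool A the middle range from lower to upper quartile was 2443 to 3029 CPM in POU5F1-positive cells and 3809 to 13690 CPM in POU5F1-zero cells. Of the POU5F1-positive cells, 94% in pool A, 95.2% in B1 and 95.3% in B2 lay below the lower quartile of POU5F1-zero cells of their own library. The median matrix level of POU5F1-positive cells moved with the library, 2671, 1278 and 2298 CPM, and the part of RNA released from other cells in these values was not tested.

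Inflammatory and secreted genes that are typical of senescent fibroblasts were mostly lower (median -1.28). Of 25 tested, 19 fell (76%, against 14.7% of all genes) and 1 rose (4%, against 13.8%). CXCL8, a chemokine that attracts neutrophils, stood at 0.706, 0.49 and 1.4 CPM against 16.4, 17.7 and 14.6 CPM (log2 fold change -4.13 ± 0.22, adjusted p = 7.03e-06). CXCL1 stood at 31.6, 9.32 and 42.9 CPM against 194, 135 and 182 CPM (-2.48), and IL6 did not pass the test (-0.14). The gene that rose was SPP1, osteopontin, a secreted phosphoprotein that binds integrins, at 1070, 848 and 834 CPM against 301, 170 and 156 CPM (2.14). The sum over the list was 1455, 1092 and 1148 CPM against 1579, 1488 and 1357 CPM. SPP1 was the larger part of this sum in POU5F1-positive cells but not in POU5F1-zero cells, so the sum does not show the falls of the other genes. Of 28 interferon-stimulated genes tested, 11 fell (39.3%, against 14.7% of all genes) and 5 rose (17.9%, near the 13.8% of all genes), with a median of -0.83. IFIH1, a sensor of double-stranded RNA, stood at 5.15, 1.47 and 3.21 CPM against 17.5, 21.3 and 13.6 CPM (-2.01). IFITM1, a membrane protein that is also high in pluripotent cells, rose, at 165, 234 and 37.7 CPM against 46.6, 61.9 and 12.7 CPM (1.97), and in both classes it was lower in B2 than in the other libraries.

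Ligands and receptors went both ways. HGF, the ligand of the receptor MET, fell, at 2.93, 1.47 and 1.6 CPM against 15, 25.8 and 18.4 CPM (log2 fold change -2.84 ± 0.30, adjusted p = 0.000126). MET fell less, at 6.86, 4.9 and 6.01 CPM against 12.6, 17.5 and 12.8 CPM (-1.03 ± 0.17, adjusted p = 0.00134), and the call was lost with thinned cells, with cells between the depth quartiles and without pool B. NRG1, a ligand of ERBB3, stood at 5.55, 4.9 and 5.81 CPM against 8.65, 10.9 and 7.75 CPM and did not pass the test (-0.59 ± 0.16, adjusted p = 0.015). ERBB3 rose, at 15.8, 20.1 and 13.2 CPM against 2.83, 3.52 and 2.28 CPM (2.56 ± 0.19, adjusted p = 2.64e-05). The ligand FGF2 rose (0.98). Of its receptors FGFR2 (3.34), FGFR3 (2.27) and FGFR4 (2.18) passed the test, while FGFR1, at 54.2, 85.8 and 58.1 CPM against 44.2, 82.1 and 60.6 CPM, did not (0.18). BMP4 stood at 105, 183 and 116 CPM against 40.1, 42.2 and 41.2 CPM (1.58). In all, 10 rose (32.3%, against 13.8% of all genes) and 11 fell (35.5%, against 14.7%) of 31 genes tested, with a median of -0.09.

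Part of the cell division genes rose and part of the inhibitors fell. Of 54 genes of the G2 and M phases, 32 rose and 1 fell (median 0.53), and of 42 genes of the S phase 15 rose and 1 fell (median 0.30). These are shares of 59.3% and 35.7% rising, against 13.8% of all genes. HELLS, a chromatin remodeller, led the S phase genes, at 240, 373 and 154 CPM against 80.6, 118 and 47 CPM (log2 fold change 1.73), and UBE2C, a ubiquitin-conjugating enzyme of mitosis, led those of G2 and M, at 287, 341 and 344 CPM against 166, 121 and 147 CPM (1.06). UBE2C, CDCA8 (1.03) and BUB1 (1.00), the named rises of G2 and M, all lost their call with the cells between the depth quartiles. BUB1 kept it in 17 of 22 alternative analyses. The part of depth in these rises was not tested. CCNE2 (S phase) and GAS2L3 (G2 and M) were the genes that fell. CCNE2 lost its call with thinned cells, with cells between the depth quartiles and without pool A of day 7, and GAS2L3 kept its call in 13 of 22 alternative analyses. Of 20 inhibitors of the cell cycle and targets of p53, 8 fell (40%, against 14.7% of all genes) and none rose (median -0.49). CDKN2C stood at 2.72, 2.45 and 1.8 CPM against 13.8, 13.3 and 14.5 CPM (-2.52 ± 0.21), CDKN1A at 68.2, 36.3 and 68.7 CPM against 119, 116 and 159 CPM (-1.04), and CDKN2A at 72.6, 65.7 and 81.5 CPM against 117, 120 and 142 CPM (-0.74). MDM2 (-0.33) and GDF15 (-0.12), which p53 activates, did not pass the test. Of the DNA methylation genes, DNMT3A (1.29), DNMT3B and TET1 (1.94) rose and TET3 (-1.77) fell of 10 tested (30% and 10%, against 13.8% and 14.7% of all genes, median 0.12), with the fall of TET3 kept in 9 of 22 alternative analyses, while DNMT1, the maintenance enzyme, did not pass the test (0.19). Among 19 glycolysis genes, 9 rose (47.4%) and 1 fell (5.26%), against 13.8% and 14.7% of all genes (median 0.23). The glucose transporters SLC2A3 (1.40) and SLC2A1 (1.26) rose and LDHA, lactate dehydrogenase, fell (-0.72).

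Lineage markers gave a mixed picture at low levels. Of the mesendoderm markers T, GATA4, FOXA2, SOX17 and CER1 were at 0 in the POU5F1-positive cells of all libraries. EOMES was counted in 3 UMIs, all in pool A. Of 8 tested none rose and HHEX fell (-1.01), with a median of 0.04. A share of 12.5% falling is near the 14.7% of all genes. The call of HHEX was lost with thinned cells, with cells between the depth quartiles and without pool B. Of the neuroectoderm markers 5 were tested, MAP2 fell (-1.66), a share of 20% against 14.7% of all genes, and none rose (median -0.50), and PAX6 was at 0 in POU5F1-positive cells. Of 9 trophoblast and amnion markers tested, 4 rose (44.4%, against 13.8% of all genes) and 2 fell (22.2%, against 14.7%) (median 0.32). ABCG2 (1.91), a transporter of the cell surface, was among those that rose. Summed over the list they took 166.5, 114.7 and 200 CPM in POU5F1-positive cells against 212.5, 220.6 and 260.1 CPM in POU5F1-zero cells. The sum was thus lower in POU5F1-positive cells of each library. CSH1, a placental lactogen, stood at 23.3, 1.96 and 35.9 CPM against 0.888, 0 and 0.0529 CPM, and its near-identical copy CSH2 shares reads with it, so both are uncertain. A CSH1 UMI was found in 4, 0 and 2 of the thinned cells, and its call was lost with the cells between the depth quartiles. Genes of the naive state and of the pre-implantation embryo were detected in part, with 8 of 20 listed reaching the filter. Of these 5 rose (62.5%, against 13.8% of all genes) and none fell (median 1.65). The filter counted the 41975 kept cells of the series, of which 14168 were POU5F1-positive, so a gene could pass it through these alone. The counts of rises and falls are therefore partly set by the filter. DPPA5 stood at 11.4, 10.8 and 13 CPM against 0.458, 0.325 and 0.251 CPM (5.19 ± 0.22), KHDC3L at 8.48, 2.45 and 9.02 CPM against 0.172, 0 and 0.132 CPM (5.88 ± 0.25), and DPPA3 at 11, 11.3 and 5.61 CPM against 1.17, 0.379 and 0.344 CPM (3.76 ± 0.27). DUXA, ZSCAN4, LEUTX and TPRX1, which belong to embryonic genome activation, were at 0 in both classes. ARGFX, a homeobox gene of the same stage, was counted in both, at 18.1, 2.94 and 19.2 CPM against 13.3, 6.71 and 9.99 CPM, and did not pass the test (0.55 ± 0.16, adjusted p = 0.019). Its classes overlapped, with POU5F1-positive cells lower in B1.

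The genes whose RNA was transfected behaved unevenly. Besides NANOG, LIN28A stood at 303, 698 and 153 CPM against 148, 126 and 37.8 CPM (log2 fold change 1.79 ± 0.32, adjusted p = 0.0024), and SOX2 at 32, 89.2 and 16.8 CPM against 16.7, 14.3 and 6.23 CPM (1.62 ± 0.33, adjusted p = 0.00408). For both, the level in the POU5F1-positive cells of B1 was the highest, and that of the POU5F1-positive cells of B2 was close to the POU5F1-zero cells of pool A. SOX2 lost its call in 7 of 22 alternative analyses, and LIN28A lost it with DESeq2, without the pool as a block and against all cells under 100 CPM. MYC rose little, at 31.4, 33.8 and 35.5 CPM against 19, 23.3 and 23 CPM (0.69 ± 0.12), a call lost without the block and without pool A, and KLF4 did not pass the test, at 4.14, 9.81 and 8.82 CPM against 3.03, 5.68 and 9.16 CPM (0.26 ± 0.24). AES, a corepressor gene whose counts were 142 and 160 CPM on day 0, stood at 7220, 10700 and 9950 CPM in POU5F1-positive cells and at 6850, 3820 and 7580 CPM in POU5F1-zero cells, a difference that did not pass the test (0.35 ± 0.20, adjusted p = 0.185). Its direction turned with the processing: AES was called higher with thinned cells (1.48) and lower with the cells between the depth quartiles (-1.29). It was also called higher with no filter on genes, with the sums of day 7 alone and without pool B of day 9, so no direction is given for it. Whether the counts assigned to AES on day 7 are RNA of that gene or of transfected messengers that align there was not tested.

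**Figure D3:**
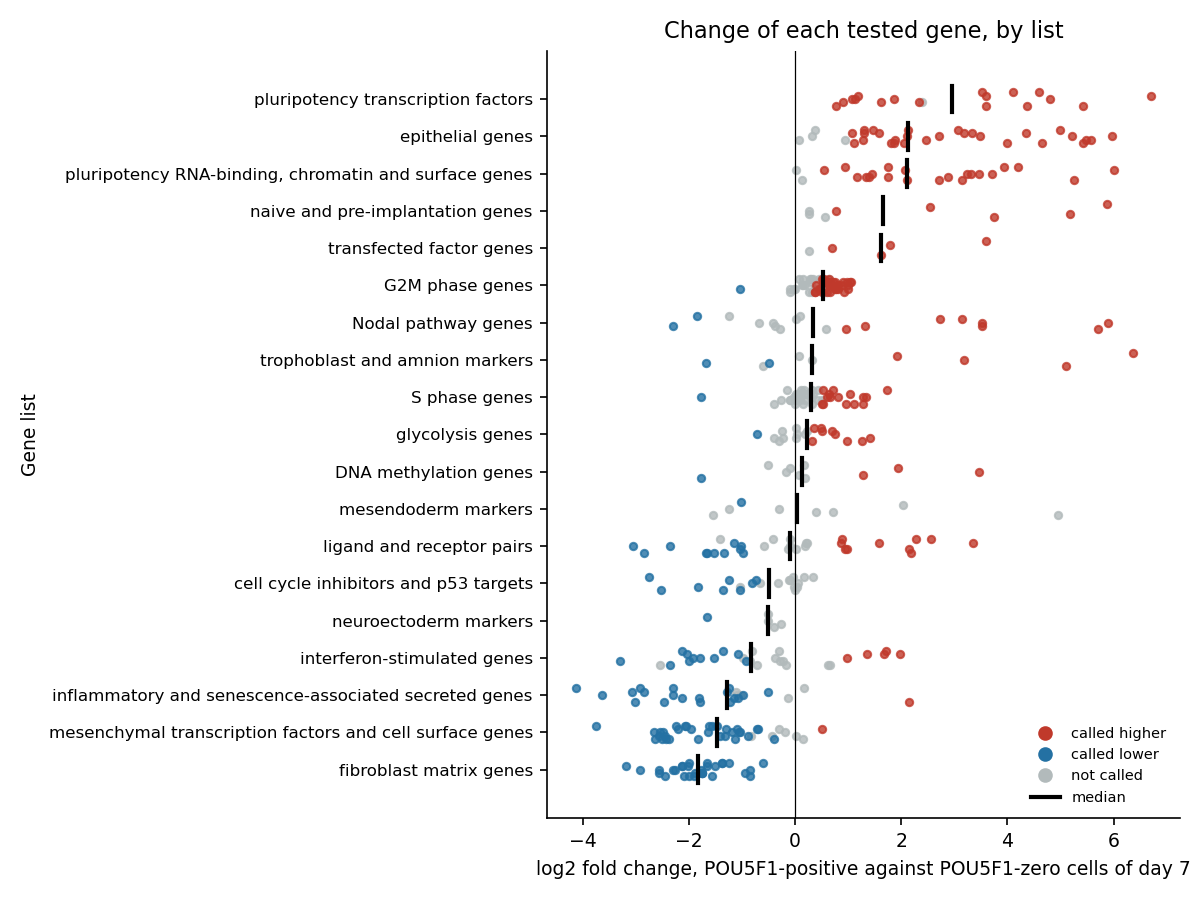
Log2 fold change of each tested gene between POU5F1-positive and POU5F1-zero cells of day 7 (horizontal axis) by gene list (vertical axis), with called genes in red (higher) or blue (lower), others in grey, and the median of each list as a bar. The lists run from fibroblast matrix genes (median -1.83) to pluripotency transcription factors (2.95), and all tested genes of the former lie below 0.

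Levels by range of POU5F1, the gene that chose the cells, are given as a description. In pool A, EPCAM stood at 8.99 CPM in cells without POU5F1, 13.1 CPM in cells above 0 and under 100 CPM, 83.6 CPM between 100 and 300 CPM, 187 CPM between 300 and 600 CPM and 305 CPM above that. The same order held in B2 (3.29, 9.87, 43, 152 and 230 CPM) and in B1 (3.41, 7.45, 42.4, 189 and 212 CPM). EPCAM was thus higher in each range than in the one before it in all 3 libraries. DPPA4 rose in the same order, from 6.58 to 96.1 CPM in pool A, from 5.62 to 171 CPM in B1 and from 4.53 to 142 CPM in B2. TDGF1 stood at 438, 436 and 525 CPM in the 3 ranges from 100 CPM upwards in pool A, at 373, 774 and 524 CPM in B1 and at 445, 508 and 635 CPM in B2, so that only B2 showed a steady order. COL1A1 fell from 805 CPM without POU5F1 to 525 and 218 CPM in the next ranges of pool A and was 184 and 189 CPM beyond, whereas in B2 it stood at 2030, 1150, 312, 511 and 187 CPM, without a steady order. In B1 COL1A1 was lower in each range than in the one before, at 1270, 717, 103, 100 and 56.7 CPM. The range from 300 to 600 CPM held 28, 3 and 10 cells in pool A, B1 and B2, so its values in B1 rest on 3 cells. The ranges differed in depth as well, with medians between 66529 and 106872.5 UMIs in pool A, and the part of depth in these levels was not tested.

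**Figure D4:**
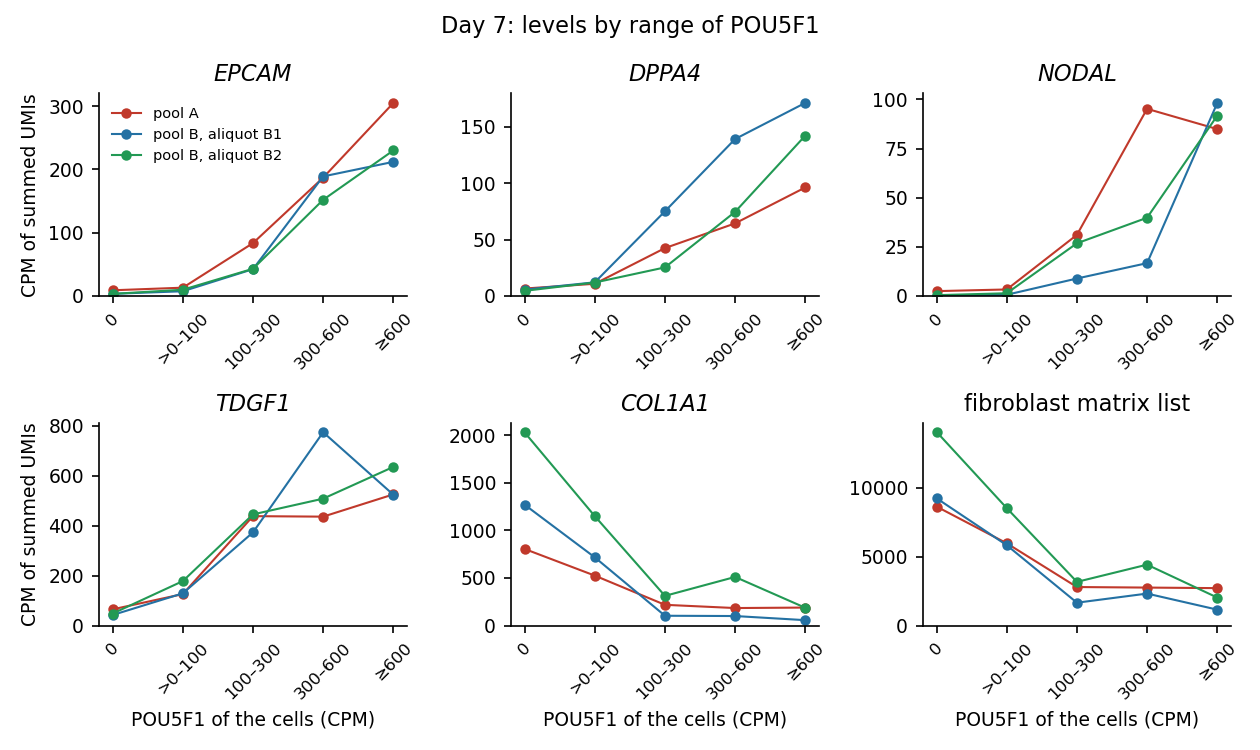
CPM of summed UMIs (vertical axes, linear from 0) of 5 genes and of the fibroblast matrix list in cells of day 7 by their POU5F1 level (horizontal axes, CPM), 1 line for each library. EPCAM climbs from 8.99 CPM or less to between 212 and 305 CPM, while the matrix list falls from between 8620 and 14030 CPM to between 1153 and 2712 CPM.

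Among themselves the POU5F1-positive cells differed in how many of the markers NANOG, TDGF1, L1TD1, DPPA4, DNMT3B, LIN28B, EPCAM and CDH1 they showed at 20000 UMIs. At least 4 of these 8 were found in 120 of 181 cells, namely 67.3% in pool A, 61.9% in B1 and 66.1% in B2. In POU5F1-zero cells the shares were 3.26%, 1.38% and 1.45%. All 8 were found in 1 cell, and 0 or 1 in 6 cells. TDGF1 was found in 96.9%, 85.7% and 90.3% of POU5F1-positive cells (97%, 95.2% and 98.4% before thinning), NANOG in 50%, 61.9% and 54.8%, and CDH1 in 4.08%, 9.52% and 3.23%. In POU5F1-zero cells of the same libraries TDGF1 was found in 47.1%, 19.3% and 23.1% and NANOG in 9.77%, 3.1% and 3.77%. Both were thus also counted outside the selected cells, and the part of RNA released from other cells was not tested. In fibroblasts of day 0, whose cells were thinned alike, NANOG was found in 0.585% and 1.1% and TDGF1 in 0.0468% and 0.025% in pools A and B. At this depth a cell without a NANOG UMI is not shown to lack the RNA, since 83%, 85.7% and 73.4% of the cells held one before thinning. As a description, Spearman's rho of POU5F1 with EPCAM over the 98, 21 and 62 thinned cells of pool A, B1 and B2 was 0.54, 0.49 and 0.65. For TDGF1 it was 0.15, 0.07 and 0.37, and for VIM -0.34, -0.68 and -0.43. The cells of a library share its capture and depth, and EPCAM had a mean of 2.8, 2.48 and 2.95 UMIs per thinned cell.

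POU5F1-positive cells of day 9 were compared with those of day 7 over pools, without a block, since pools of different days are different cells. Of the genes tested, 20 (0.156%) were higher and 7 (0.0547%) lower on day 9, with 2555 genes at an unadjusted p below 0.05. The counts depend on which pools enter: without pool A of day 7 they were 100 and 125, without pool B of day 7 334 and 321, without either pool of day 9 both were 0, and without the libraries A1 and B1 of day 9, which held 2 and 14 POU5F1-zero cells against 366 and 167 in A2 and B2, they were 94 and 139. Without aliquot B1 of day 7 they were 4 and 0, and without aliquot B2 the number of falls was 1. Of 18 tested genes of the NODAL pathway 3 rose: LEFTY1, LEFTY2 and FST. LEFTY1 stood at 6.26 and 8.96 CPM in pools A and B of day 7 and at 296 and 244 CPM on day 9 (log2 fold change 5.15 ± 0.42, adjusted p = 0.00171), and LEFTY2 at 0.606 and 13.1 CPM and at 372 and 310 CPM (5.75 ± 0.71, adjusted p = 0.00939). FST, which binds activin, rose from 27.5 and 19.1 CPM to 105 and 122 CPM (2.25 ± 0.20), and in POU5F1-zero cells of day 9 it was as high, at 113 and 158 CPM. NODAL, not called, stood at 58.6 and 49.5 CPM on day 7 and at 348 and 309 CPM on day 9. FGF8, a growth factor of the gastrula, rose from 0.404 and 0.569 CPM to 20.7 and 16 CPM (5.24 ± 0.35), and MIXL1, a mesendoderm factor, from 0.202 and 0.853 CPM to 15 and 15.9 CPM (4.98 ± 0.50). DPPA2 (1.60), DPPA5 (1.80) and the junction genes CLDN7 (1.92) and AP1M2 (1.82) were among the other rises. Among the genes at 50 CPM or more, CNN1 (2.01) and PMAIP1 (1.31) also rose. No fall reached that level, and the genes that fell were EHD3, DOCK10, TSPAN5, FAM65B, C10orf54, MGP (-3.22) and DCN (-1.96). DCN stood at 34.9 and 26.3 CPM on day 7 and at 6.08 and 9.93 CPM on day 9.

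**Figure D5:**
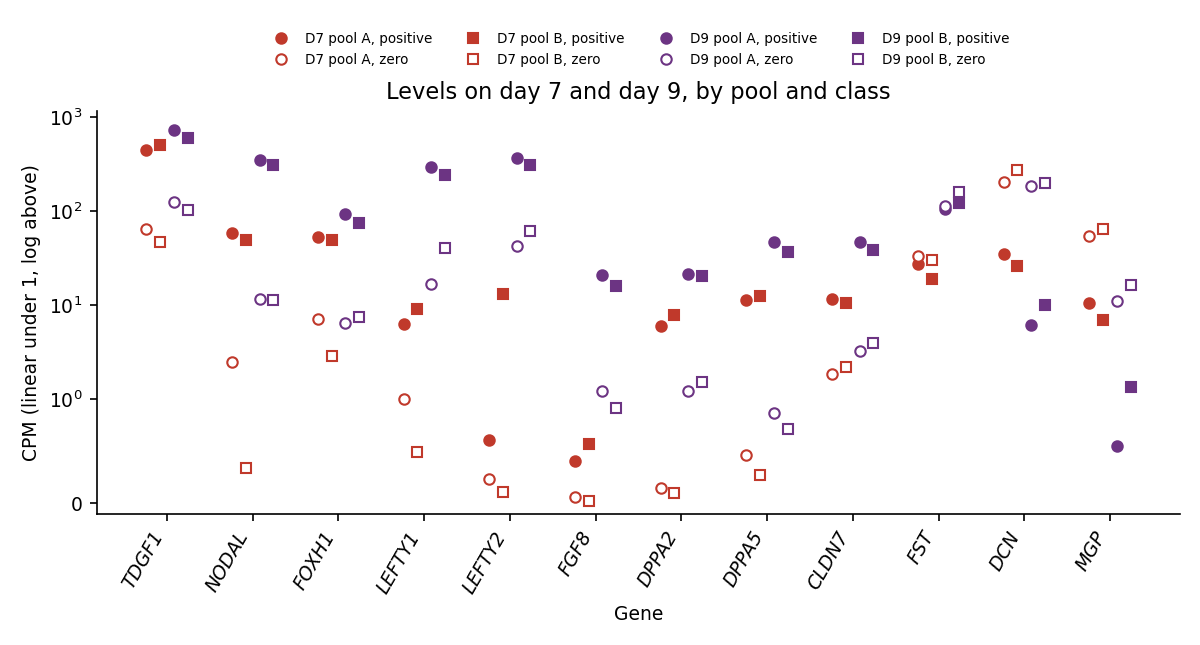
CPM of summed UMIs of 12 genes (vertical axis, linear under 1 and logarithmic above) in POU5F1-positive (filled) and POU5F1-zero cells (open) of pools A (circles) and B (squares) on day 7 (red) and day 9 (purple). LEFTY1 and LEFTY2 lie at 13.1 CPM or less in POU5F1-positive cells of day 7 and at 244 CPM or more in those of day 9, while TDGF1 lies between 451 and 733 CPM on both days.

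The size of the class difference itself was tested between the days. It was larger on day 9 for 2 genes (0.0156%) and smaller, which includes more negative, for 9 (0.0704%), with 2155 genes at an unadjusted p below 0.05. No gene was called in either direction with no replicate block, without pool A of day 9 or with the stricter filter on cells, and 28 and 100 were called without pool B of day 9. With each library as its own block 2 and 9 genes were called, of which 0 and 1 were the same. Without the libraries A1 and B1 of day 9, 1 and 33 were called, of which 0 and 8 were the same. ID3, an inhibitor of basic helix-loop-helix factors and a target of BMP signalling, was higher in POU5F1-positive cells of day 7, at 689, 652 and 619 CPM against 250, 213 and 162 CPM (log2 fold change 1.69 ± 0.10), but on day 9 the classes stood at 326 and 364 against 298 and 325 CPM. PMP22, a membrane protein of peripheral myelin, rose in POU5F1-positive cells of day 7 (0.80 ± 0.12), a call lost with each library as its own block, at 200 CPM of POU5F1 and without B2, whereas on day 9 it stood at 70.6 and 102 CPM against 150 and 159 CPM. POU5F1 itself, which the rule used, stood at 344 and 491 CPM in the selected cells of day 7 and at 864 and 720 CPM in those of day 9, and TDGF1 at 451 and 505 CPM and at 733 and 608 CPM.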

How the data were processed

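Droplet libraries (10x, 3′ ends) of BJ cells were made for 22 aliquots of 16 pools on 8 days, and those of days 0, 7 and 9 carry the results. Per the labels and the study's methods, the authors aligned reads to GRCh38 and counted UMIs with Cell Ranger 2.2. The deposited values are raw counts of UMIs per gene and cell. Cells under 1000 genes or above 10% mitochondrial UMIs were left out, and the rest had median depths between 23717 and 88662 UMIs per library. UMIs were summed per pool and class on days 7 and 9 and tested with edgeR 4.0.16 (R 4.3.3, TMM, quasi-likelihood, pool as block, class within day, Benjamini-Hochberg). Genes with a UMI in at least 5% of the kept cells of all 22 libraries were tested, without POU5F1. A gene high only in POU5F1-positive cells could pass this filter through them, which favours rises over falls in lists of such genes. Both classes of a pool come from the same pool of cells, and their deviations correlated at 0.523 on day 7 and 0.129 on day 9 over genes. Levels are CPM of summed UMIs. Named genes were the 12 largest rises and falls at 50 CPM or more, the 4 largest called changes of each of 19 lists, the transfected factors, AES, HGF, MET, NRG1, ERBB3, and the 6 largest changes between days. List members given beside these are shown whether or not they passed, and some named genes are not reported here. Members and lists were chosen with earlier results of these data known. The 12 rises and 12 falls also had to move the same way in the 3 libraries of day 7. On simulated counts for the day 7 comparison (12793 genes), 11 of 50 genes changed 1.5-fold, 32 of 50 changed 2-fold, 48 of 50 changed 4-fold and 49 of 50 changed 8-fold were called, with 2 false calls. The simulation changed 200 genes and drew its counts from the spread estimated in the same fit. Its 2 false calls therefore do not measure those among the 3647 genes called in the data. Doublets were scored with scanpy 1.11.5 and were left in. The default threshold called 4, 7 and 5 cells in the day 7 libraries.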

Additional observations from a re-analysis of the deposited data

Results flagged for a closer look

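The class difference between POU5F1-positive and POU5F1-zero cells differed between days 7 and 9 for 11 genes, tested in the fit itself. Among them, on the log2 scale, it was more negative on day 9 for MMP3 (-3.33), RGS4 (-2.56), PMP22 (-1.67), ID3 (-1.55), TNC (-1.40), THBS1 (-1.39), CTSB (-1.35) and BGN (-1.22). It was more positive for PAM16 (3.05) and MRPS24 (3.14). On day 9 the classes came unevenly from the libraries of a pool: A1 and B1 held 96 and 654 POU5F1-positive cells but 2 and 14 POU5F1-zero cells. Without A1 and B1, 1 and 33 genes were called, of which 0 and 8 were among the 11. Neither PAM16 nor MRPS24 was then called, and the part of the libraries in these differences was not tested. PAM16 stood at 24.2 and 13.4 CPM in POU5F1-positive cells of pools A and B on day 7 and at 9.06 and 11.7 CPM on day 9, against 22.8 and 10.5 CPM and 1.03 and 1.02 CPM in POU5F1-zero cells. With each library as its own block 2 and 9 genes were called again, of which 0 and 1 were among these, and with thinned cells 3 and 5, of which 0 and 3 were. None of the 11 was called without the pool as a block, where 1065 genes had an unadjusted p below 0.05 by edgeR.

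By the same rule 3 of 6660 kept cells of day 3 and 14 of 2582 of day 5 reached 100 CPM of POU5F1, against 0 of 10776 on day 0. The 3 cells of day 3, with 13996 to 28702 UMIs, held none of the 8 markers. The cells of day 5 had 7714 to 98056 UMIs, against medians of 74876.5 or more in POU5F1-positive cells of day 7. At low depth a marker without a UMI is not shown to be absent. Of the cells of day 5, 5 held only 1 or 2 POU5F1 UMIs, TDGF1 was found in 3, L1TD1 in 5, NANOG in 1 and EPCAM in 1. A single cell of day 5, with 98056 UMIs, held 4 of the markers, with 92 UMIs of TDGF1, 41 of L1TD1, 3 of NANOG and 2 of EPCAM.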

How the results depend on the processing

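Of 97 named genes called between the classes of day 7, 66 kept their call in all 22 alternatives. AES alone reversed, to -1.29 with cells between the depth quartiles, and it gained a call with thinned cells, with no filter on genes, with the sums of day 7 alone and without pool B of day 9. The 1770 higher and 1877 lower genes became 1022 and 1122 with no replicate block, 2736 and 2928 with the looser threshold (adjusted p of 0.05, any fold), 758 and 672 between the depth quartiles, and 1074 and 959 with thinned cells. With no filter on genes 3091 were lower. Leaving out 1 pool or aliquot gave 863 to 1997 higher and 918 to 2163 lower genes. Class differences larger and smaller on day 9 (2 and 9) became 5 and 21 with DESeq2 size factors, 19 and 132 with DESeq2, 278 and 390 with no filter, 0 and 0 with no replicate block, 32 and 149 at the looser threshold, 0 and 2 between quartiles, 5 and 25 at 50 CPM of POU5F1, 7 and 22 with at least 3 UMIs, 0 and 0 with the stricter cell filter, and 1 and 33 without libraries A1 and B1 of day 9. With thinned cells 5 were smaller, and without the highest doublet scores 1 was larger. Leaving out 1 pool or aliquot gave 0 to 34 and 0 to 182. Genes higher and lower in POU5F1-positive cells of day 9 (20 and 7) became 153 and 215 with DESeq2, 491 and 382 with no filter, 8 and 2 with the pool letter as a replicate block, 166 and 167 at the looser threshold, 5 and 0 between quartiles, 10 and 0 with thinned cells, 51 and 23 at 50 CPM, 8 and 0 with the stricter cell filter, and 94 and 139 without libraries A1 and B1. The falls were 13 at 200 CPM, 4 with at least 3 UMIs and 2 without the highest doublet scores. Leaving out 1 pool or aliquot gave 0 to 334 and 0 to 321. The share of 4.37% became 7.42% at 50 CPM, 2.62% at 200 CPM and 6.57% with thinning before the rule. The alternative without libraries A1 and B1 was chosen after seeing the data. The causes of these changes were not tested.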
